A study of Homo sapiens with 4 samples.

Results

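The 6 genes described here are TXNIP, ARRDC1, ARRDC2, ARRDC3 and ARRDC4, which encode alpha-arrestins, and MLXIP, which encodes the glucose-responsive transcription factor MondoA. RNA was sequenced from Jurkat cells, an established human line of T-cell acute lymphoblastic leukaemia origin. In the ARIEL knockdown group (2 libraries) cells carried an shRNA, a short hairpin RNA that silences its target, against the long non-coding RNA ARIEL. In the control group (2 libraries) they carried an shRNA against GFP, a protein these cells do not make. Cells of both groups were infected with lentivirus, kept in puromycin (0.7 µg/ml) for 36 h or longer to select them, and collected 72 h after infection. The genes were taken by name from a table of 22361 genes or loci, and all 6 were found. They were chosen by gene family together with the measured difference between these same groups, in which ARRDC4 had one of the highest values. The values of the 6 genes in this comparison are therefore given as a description, without a test.

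Alpha-arrestins are adaptor proteins that carry an arrestin fold and, in most members, short motifs bound by ubiquitin ligases of the NEDD4 family, which they bring to membrane proteins. TXNIP also binds thioredoxin and promotes the removal of glucose transporters from the cell surface, and ARRDC4, its closest relative, likewise restrains glucose uptake. TXNIP and ARRDC4 are among the best-known targets of MondoA, which enters the nucleus with its partner MLX when glucose 6-phosphate accumulates and binds carbohydrate response elements, paired E-box-like sequences near the starts of its targets.

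Promoter sequences are shown for TXNIP and ARRDC4, the glucose-responsive pair. TXNIP had the lowest listed level of the 6 genes, with a limit on its identifier given below, and ARRDC4 the largest difference. The windows run from 250 bases before to 50 bases after the transcript start and come from RefSeq (build GRCh38.p14), written 5′ to 3′ on the gene's strand. Capitals mark matches, on either strand, to the E-box CACGTG, to a direct repeat of 2 E-box-like sites 5 bases apart (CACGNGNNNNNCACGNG), to the CCAAT box and to the forkhead motif GTAAACA. The matches did not overlap one another. The TXNIP window, the first of 2 that RefSeq gives for the gene, lies at chr1:145996530-145996829 (minus strand) and the ARRDC4 window at chr15:97960453-97960752 (plus strand).
TXNIP: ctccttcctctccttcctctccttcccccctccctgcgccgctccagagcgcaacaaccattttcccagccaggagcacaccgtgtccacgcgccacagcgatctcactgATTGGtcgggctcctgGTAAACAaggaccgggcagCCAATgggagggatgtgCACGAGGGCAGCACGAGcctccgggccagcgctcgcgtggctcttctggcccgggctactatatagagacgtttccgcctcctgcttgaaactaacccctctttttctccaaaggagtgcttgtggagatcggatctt
ARRDC4: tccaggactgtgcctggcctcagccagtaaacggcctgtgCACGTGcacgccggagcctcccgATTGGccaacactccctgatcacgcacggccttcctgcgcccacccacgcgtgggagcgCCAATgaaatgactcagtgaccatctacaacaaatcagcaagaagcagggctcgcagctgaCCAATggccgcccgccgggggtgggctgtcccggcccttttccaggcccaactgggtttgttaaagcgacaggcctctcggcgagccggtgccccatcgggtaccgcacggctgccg

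TXNIP carried the direct repeat, from position -88, with a CCAAT box at -105, a further one on the other strand at -140 and the forkhead motif at -124. That repeat was found in 20 of 35116 RefSeq promoter windows (0.057%). ARRDC4 did not carry it. Its window held an E-box at position -210, a sequence present in 7.26% of windows, and 3 CCAAT boxes, at -187, -128 and -67. RefSeq gave 9 windows for the 6 genes, and each of the 6 genes had a CCAAT box in at least 1 of its windows, against 39.7% of the 27305 genes with a window. The forkhead motif, in 3.42% of windows, was also found in the second window of ARRDC3, 29 bases before that start, on the other strand. It is shown with its surroundings at chr5:91380100-91380146 (minus strand), the match in capitals. The E-box and the repeat were found in no window of ARRDC1, ARRDC2, ARRDC3 or MLXIP. A match describes these letters and does not show that a factor binds there.
ARRDC3: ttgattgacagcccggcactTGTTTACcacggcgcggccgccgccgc

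Expression is given as regularised log (rlog) levels, in log2 units. Differences between them were smaller than the log2 fold changes of the authors' deposited table. Over 1242 tested genes with a deposited log2 fold change of at least 0.5 in size the median ratio was 0.49, with 0.26 in the lowest and 0.55 in the highest of 5 bins by level, and the cause was not tested. The table holds no counts, so library depth is unknown. The 14601 genes tested were those whose mean rlog reached 3.32, and their median level was 11.32 and 11.31 in the ARIEL knockdown libraries and 11.32 in each control library. The targeted RNA, named XLOC_005968 in the table and linked to ARIEL only by background knowledge, had rlog values of 10.58 and 10.55 in the ARIEL knockdown libraries, against 12.02 and 11.91 in the control libraries. All 12 T-cell markers examined were above the filter, with CD3D at a mean rlog of 15.4 and LCK at 16.7. Of 24 markers of B, myeloid, erythroid, fibroblast and epithelial cells 6 were above it and 9 were at 0 in every library, among them MS4A1, CSF1R and EPCAM. The highest was the B-cell receptor gene CD79A, with 11.23 and 11.25 in the ARIEL knockdown libraries, against 10.91 and 10.99 in the control libraries, and its part in any result was not tested. Over all tested genes 22.1% rose and 22.4% fell (limma, adjusted p under 0.05), 6488 genes in all, and 4225 were called without ARIEL knockdown replicate 2.

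ARRDC4 was the member with the largest difference. It had rlog values of 11.07 and 11.03 in the ARIEL knockdown libraries, against 10.41 and 10.41 in the control libraries. Both knockdown libraries lay above both control libraries, and the groups were further apart than any pair of replicates, whose larger gap was 0.04. The difference was 0.64 ± 0.04 (SE, n = 2 per group), the 8th highest of the 14601 genes tested. This rank, like those of the other members below, is on the rlog scale. On that scale differences of low-level genes were smaller relative to their deposited log2 fold changes. In the authors' deposited table, ARRDC4 was 2.40-fold higher (log2 fold change 1.26 ± 0.09, SE).

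TXNIP, its paralogue and the best-known glucose-induced gene of the family, was listed near the bottom of the measured range in every library. Its rlog values were 2.67 and 2.70 in the ARIEL knockdown libraries, against 2.69 and 2.68 in the control libraries. The groups overlapped, and the difference of 0.00 was smaller than the gap of 0.03 between the knockdown libraries. Its mean of 2.69 was below the filter of 3.32, and 16.7% of the rows not listed at 0 had a lower mean, so TXNIP was the only member left out of the fit across genes. The authors' deposited table gives TXNIP a log2 fold change of 0.02 ± 0.12 (SE). For scale, HBB, the haemoglobin beta gene of red cells, had 2.68 and 2.70 in the ARIEL knockdown libraries, against 2.69 and 2.68 in the control libraries, so TXNIP was listed at about the rlog of a gene that marks another lineage. Per kilobase of transcript the level of HBB was 3.09 and that of TXNIP 1.14. HBB was named for this purpose after its values were seen.

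The TXNIP row carries the Ensembl identifier ENSG00000117289, which is not in GENCODE 29, where TXNIP is ENSG00000265972, and the table has 0 rows with the second identifier. The other 5 members had the same identifier in both. How the annotation used for counting defined TXNIP is not given in the sources used here, and whether all reads of the gene were assigned to this row was not tested.

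**Figure D1:**
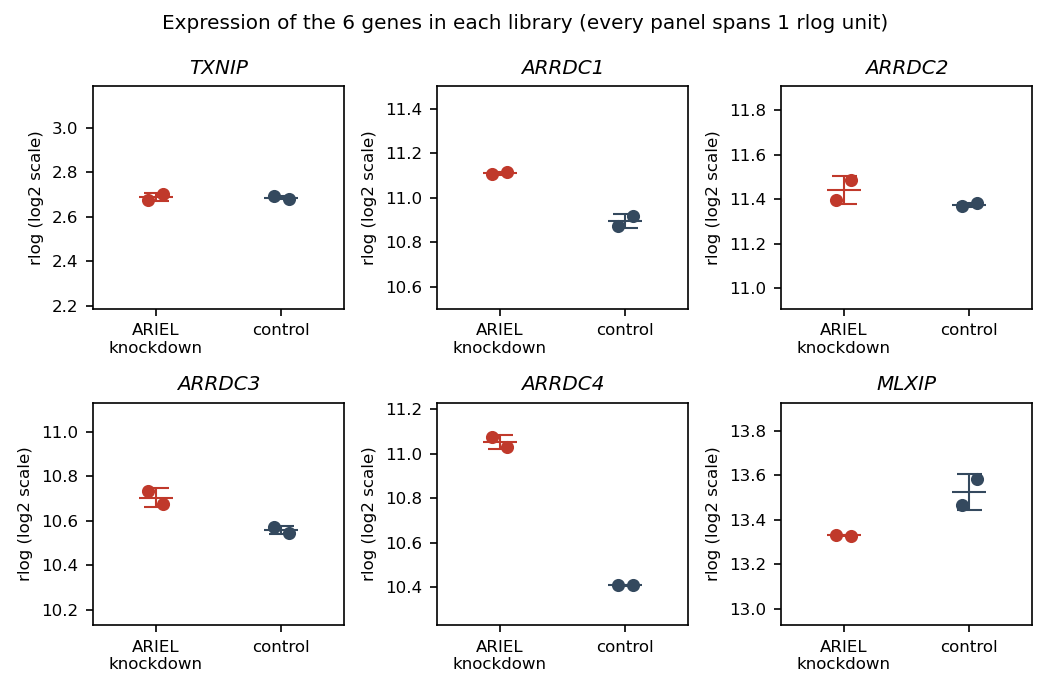
Each panel plots rlog (log2 scale) of 1 gene in the 2 ARIEL knockdown libraries (red, left) and the 2 control libraries (dark, right). Points are libraries, bars the mean ± SD, and every panel spans 1 rlog unit around its own mean. ARRDC4 lies between 11.03 and 11.07 in knockdown libraries against 10.41 in both control libraries, and TXNIP stays between 2.67 and 2.70 in all 4.

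The other 3 alpha-arrestins were higher in the ARIEL knockdown libraries by smaller amounts. ARRDC1, which brings NEDD4-family ligases and the TSG101 protein to the plasma membrane for the budding of vesicles, had 11.11 and 11.11 in the ARIEL knockdown libraries, against 10.87 and 10.92 in the control libraries. Its groups did not overlap, and the difference was 0.22 ± 0.04 (SE), about 5 times the larger gap between replicates (ratio 4.96). ARRDC3, an adaptor in the ubiquitination of the beta-2 adrenergic receptor and of integrin beta-4, had 10.73 and 10.67 in the ARIEL knockdown libraries, against 10.57 and 10.55 in the control libraries. The lower of its knockdown libraries was above both controls, and the difference was 0.15 ± 0.04 (SE), against a gap of 0.06 between the knockdown libraries.

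ARRDC2, a less studied member, had 11.40 and 11.49 in the ARIEL knockdown libraries, against 11.37 and 11.38 in the control libraries. The difference of 0.07 ± 0.04 (SE) was smaller than the gap of 0.09 between its own knockdown libraries, although the groups did not overlap. It was 0.02 without ARIEL knockdown replicate 2 and 0.11 without ARIEL knockdown replicate 1. In the authors' deposited table ARRDC1 was 1.33-fold, ARRDC3 1.22-fold and ARRDC2 1.09-fold higher. The rlog differences of ARRDC1, ARRDC3 and ARRDC2 were the 628th, the 1602nd and the 3942nd highest of the 14601.

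MLXIP, the regulator, was the only member above the filter that was lower in the ARIEL knockdown libraries. It had 13.33 and 13.33 in the ARIEL knockdown libraries, against 13.47 and 13.58 in the control libraries. The knockdown libraries were alike and the control libraries stood 0.12 apart, and the difference was -0.19 ± 0.03 (SE). In the authors' deposited table MLXIP was 1.27-fold lower (log2 fold change -0.35 ± 0.07, SE), while ARRDC4, a known target of its protein, was 2.40-fold higher. The groups did not overlap in any of the 5 members above the filter, and the same held for 70.7% of all tested genes. Nothing in the labels says that replicates were separate cultures, so all errors concern only these libraries. The SEs of the fit across genes follow a gene's level rather than its own replicates. ARRDC4, with SDs of 0.03 (knockdown) and 0.001 (control), has an SE of 0.04. MLXIP, with SDs of 0.001 (knockdown) and 0.08 (control), has an SE of 0.03.

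**Figure D2:**
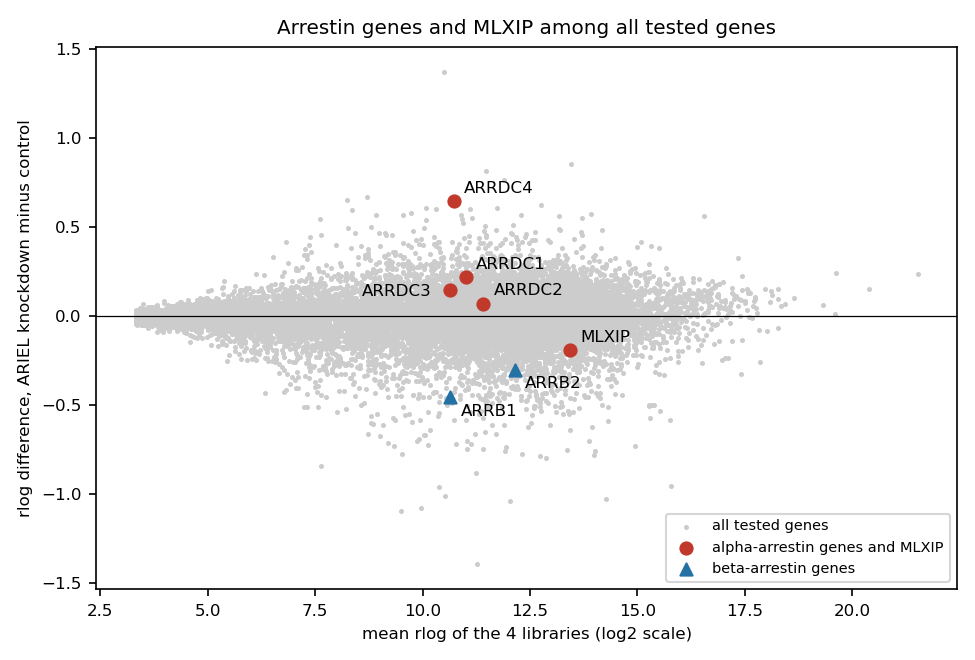
The rlog difference (ARIEL knockdown minus control, vertical axis) is plotted against the mean rlog of the 4 libraries (horizontal axis) for all 14601 tested genes (grey), the 4 tested alpha-arrestin genes and MLXIP (red circles) and the 2 beta-arrestin genes (blue triangles). ARRDC4 at 0.64 stands at the upper edge of the cloud, and MLXIP, ARRB2 and ARRB1 lie below 0.

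The order of the members by level per transcript length differed between the groups in 2 places. On the scale of rlog minus log2 of the transcript length in kilobases (GENCODE 29, the transcript with the longest coding sequence), ARRDC1 had 10.44, MLXIP 10.25, ARRDC2 10.12, ARRDC4 9.02, ARRDC3 8.64 and TXNIP 1.14 in the ARIEL knockdown group. In the control group MLXIP had 10.45, ARRDC1 10.23, ARRDC2 10.05, ARRDC3 8.49, ARRDC4 8.38 and TXNIP 1.14. ARRDC1 was thus above MLXIP, and ARRDC4 above ARRDC3, in the knockdown group, and both orders were the other way round in the control group. Within each group every pair of neighbours in the order was further apart than the SD of either, of which the largest was 0.08 for MLXIP in the control group. These orders hold for the annotated lengths used and for the row listed as TXNIP, to which not all reads of the gene may have been assigned. Which isoforms the cells make is not in the table.

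**Figure D3:**
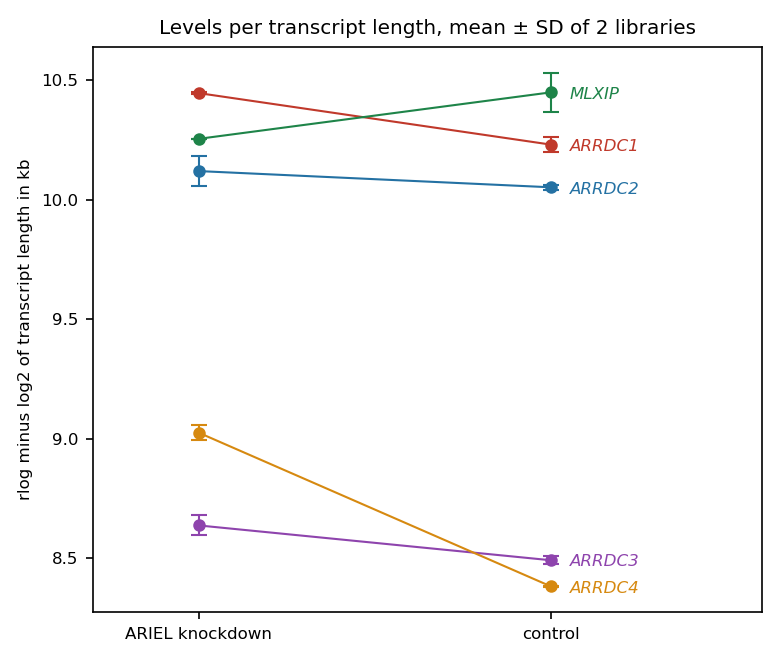
The vertical axis is rlog minus log2 of transcript length in kilobases for the 5 members above the filter, in ARIEL knockdown (left) and control (right) cells. Points are means of 2 libraries and bars the SD. The lines of ARRDC4 and ARRDC3 cross, with 9.02 and 8.64 in knockdown against 8.38 and 8.49 in control, as do those of ARRDC1 and MLXIP.

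The differences of 4 members moved by more than the SD of their replicates, pooled over the groups, when the trend with base composition was removed. Across the table the difference between groups was higher in genes with GC-richer transcripts, with medians of -0.08 and 0.08 in the lowest and the highest of 10 bins of genes by GC content. ARRDC1 and ARRDC2 have GC-rich transcripts (64.6% and 60.8%), and with the trend with GC content and length removed from each library their differences were 0.11 and 0.00. ARRDC3 and ARRDC4 have transcripts of 37.6% and 43.4% GC, and their differences were then 0.24 and 0.69. MLXIP, at 57.9% GC, differed by -0.22. ARRDC2 thus lay at the level of the trend, and ARRDC3 differed by more than ARRDC1, the reverse of their order in the deposited values.

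**Figure D4:**
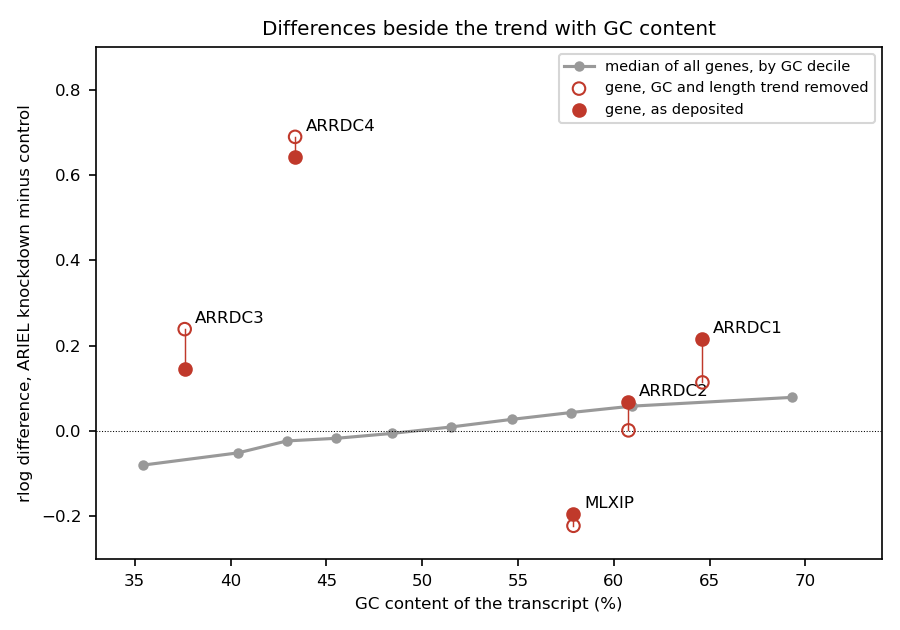
The rlog difference (ARIEL knockdown minus control) is plotted against the GC content of the transcript in percent. Filled red points are the members as deposited, open points the same with the GC and length trend removed, and the grey line joins the medians of all genes in 10 bins of GC content. ARRDC3 goes up to 0.24, ARRDC1 goes down to 0.11 and ARRDC2 to 0.00, while ARRDC4 goes from 0.64 to 0.69.

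MLX, the obligate partner of MondoA, rose with MNT and MXD4, which can also pair with MLX and act as repressors. In this network of 5 genes outside the members, 3 of 4 tested rose and 0 fell (limma, adjusted p under 0.05), against 22.1% and 22.4% of all tested genes. MXD4 had 12.30 and 12.33 in the ARIEL knockdown libraries, against 11.83 and 11.89 in the control libraries, a difference of 0.46 ± 0.04 (SE; limma, adjusted p = 4.21e-34). MNT differed by 0.15 ± 0.05 (adjusted p = 0.00437) and MLX by 0.09 ± 0.03 (adjusted p = 0.0275). MXD1 differed by -0.01 and was not called. MLXIPL, which encodes ChREBP, the liver counterpart of MondoA, was listed at 0 in every library. The list's median was 0.12, against 0.00 for all tested genes. Without ARIEL knockdown replicate 1 only MXD4 was called, and MLX was not called when any 1 library was left out.

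The beta-arrestin genes, relatives whose proteins desensitise G protein-coupled receptors, both fell. ARRB1 had 10.40 and 10.44 in the ARIEL knockdown libraries, against 10.88 and 10.87 in the control libraries, a difference of -0.46 ± 0.04 (SE; limma, adjusted p = 9.35e-24). ARRB2 had 11.99 and 12.00 in the ARIEL knockdown libraries, against 12.29 and 12.30 in the control libraries, a difference of -0.30 ± 0.04 (adjusted p = 2.33e-15). Both knockdown libraries were below both controls for each gene, and the authors' deposited table has ARRB1 1.87-fold and ARRB2 1.47-fold lower. Among the 6 tested genes of 9 with an arrestin fold outside the members, 2 rose and 2 fell, against 22.1% and 22.4% of all tested genes, with a median of 0.03. The 2 that rose encode arrestin-like subunits of retromer, the complex that returns receptors from endosomes. VPS26A differed by 0.16 ± 0.05 (adjusted p = 0.00144) and VPS26B by 0.13 ± 0.03 (adjusted p = 0.000133), and VPS26A was not called without ARIEL knockdown replicate 1 (adjusted p = 0.0644, limma). ARRDC5, the remaining alpha-arrestin, had rlog values of 2.47 and 2.47 in the ARIEL knockdown libraries, against 2.45 and 2.47 in the control libraries, and was below the filter.

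Of the 9 NEDD4-family ligases, which alpha-arrestins recruit, all were tested, and 2 rose and 4 fell, against 22.1% and 22.4% of all tested genes. Their median difference was -0.03. NEDD4L had 9.17 and 9.12 in the ARIEL knockdown libraries, against 9.47 and 9.48 in the control libraries (difference -0.33 ± 0.05, SE; limma, adjusted p = 2.99e-10). NEDD4 itself differed by -0.26 ± 0.04 (adjusted p = 9.16e-12). The rises were WWP2 at 0.10 ± 0.04 (adjusted p = 0.0106) and SMURF1 at 0.09 ± 0.04 (adjusted p = 0.0360), and ITCH, a ligase that acts on TXNIP, differed by 0.05 and was not called. Without ARIEL knockdown replicate 2, 3 of these genes were called, all of them falls. WWP2 was also not called without control replicate 1, nor SMURF1 without control replicate 2.

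Of 21 genes for glucose uptake and phosphorylation 18 were tested, of which 9 rose, 1 fell and 8 were not called. Of all tested genes 22.1% rose and 22.4% fell. The list's median difference was 0.09, against 0.00 for all tested genes. SLC2A1, the glucose transporter that TXNIP removes from the surface, had 14.13 and 14.18 in the ARIEL knockdown libraries, against 13.81 and 13.87 in the control libraries (difference 0.32 ± 0.03, SE; limma, adjusted p = 3.30e-21). HKDC1, a hexokinase-like gene, had the largest difference of the list. Its values were 9.98 and 10.05 in the ARIEL knockdown libraries, against 9.42 and 9.46 in the control libraries (0.58 ± 0.05; adjusted p = 8.03e-32). HK2, a hexokinase that makes glucose 6-phosphate, differed by 0.16 ± 0.03 (adjusted p = 1.59e-05). HK1, another hexokinase with a higher level (mean rlog 13.89, against 13.09 for HK2), differed by 0.04 and was not called. SLC2A3, which encodes the high-affinity transporter GLUT3, differed by -0.12 ± 0.04 (adjusted p = 0.00388), and was not called without ARIEL knockdown replicate 1 (limma, adjusted p = 0.0772).

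A list of 11 genes known to respond to glucose or MondoA in other cells had 2 rises and 2 falls among 9 tested, close to the 22.1% and 22.4% of all tested genes, with a median of 0.03. The rises were HK2 and PFKFB3, a regulator of glycolysis (0.12 ± 0.03, SE; limma, adjusted p = 0.000519), both also in the list on glucose uptake, and PFKFB3 was not called without ARIEL knockdown replicate 2 (adjusted p = 0.0838). FBXO32, a muscle-atrophy ubiquitin ligase gene, had 8.91 and 8.97 in the ARIEL knockdown libraries, against 9.25 and 9.25 in the control libraries (-0.31 ± 0.05; adjusted p = 1.92e-09). KLF11, a zinc-finger factor gene, differed by -0.28 ± 0.05 (adjusted p = 6.14e-08). Its relative KLF10, a classical glucose-induced gene, differed by 0.07 and was not called. Of the AMPK subunits, parts of the kinase that marks TXNIP for degradation, 1 of 5 tested fell, where 22.4% of all tested genes did, namely PRKAB1 (-0.13 ± 0.03; adjusted p = 0.000481).

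TXN encodes thioredoxin, the partner of TXNIP, and was not called. It had 13.65 and 13.66 in the ARIEL knockdown libraries, against 13.76 and 13.70 in the control libraries, a difference of -0.07 ± 0.03 (SE; limma, adjusted p = 0.0592). Of 11 genes of the thioredoxin system 4 rose and 2 fell, against 22.1% and 22.4% of all tested genes, with a median of 0.01. With the GC and length trend removed 2 rose and 5 fell, and without ARIEL knockdown replicate 2 only 3 were called. The peroxiredoxin genes PRDX5 (0.23 ± 0.03; adjusted p = 6.06e-12) and PRDX4 (-0.23 ± 0.03; adjusted p = 3.19e-10) were the extremes. The reductase gene TXNRD1 differed by 0.14 ± 0.03 (adjusted p = 9.53e-05) and TXNRD3 by -0.12 ± 0.04 (adjusted p = 0.00409), and TXNRD3 was not called without ARIEL knockdown replicate 2 or without control replicate 1.

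**Figure D5:**
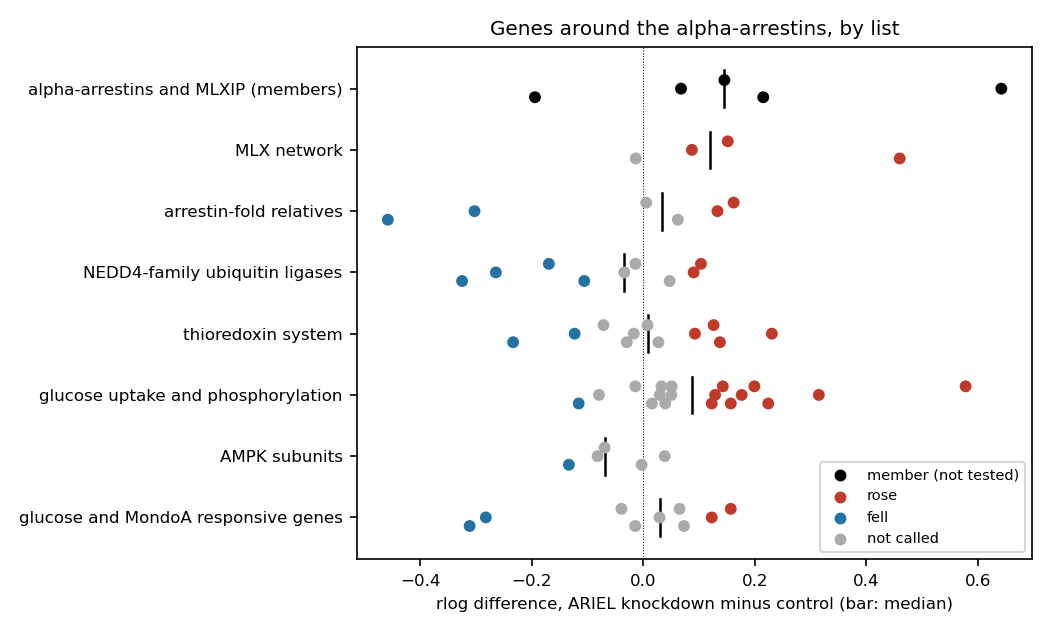
Each point is a tested gene, at its rlog difference (ARIEL knockdown minus control, horizontal axis), in rows by list, and the black bar is the median of the row. Red genes rose, blue genes fell and grey genes were not called (limma, adjusted p under 0.05). The members above the filter, in black, were in the fit but are shown without a call, which the legend labels as not tested. Of the MLX network 3 genes lie to the right, the beta-arrestins are the leftmost points among the arrestin relatives, and 9 genes of glucose uptake rose.

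The genes whose values over the 4 libraries lay nearest to those of ARRDC4 were ATP5G1, a mitochondrial ATP synthase subunit gene, DHRS2, a dehydrogenase gene, and FOSB, an AP-1 factor gene. Likeness was the Euclidean distance between mean-centred rlog values, over 11775 named genes whose mean rlog reached log2 of 50, and the distances were 0.03, 0.03 and 0.07. ATP5G1 had 13.09 and 13.06 in the ARIEL knockdown libraries, against 12.47 and 12.45 in the control libraries. For TXNIP the nearest were SEPTIN6, ELAC1 and KLHL2, all with a difference of 0.00. The mean of TXNIP, 2.69, lay below the filter of 3.32. These neighbours therefore do not show that TXNIP was measured as unchanged. With 4 libraries in 2 groups such neighbours share little more than the size of the difference.

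ARRDC1 has an antisense partner, ARRDC1-AS1, which the table lists under the same gene identifier as C9orf37, and it was looked up after the values of ARRDC1 were seen. It had 10.40 and 10.40 in the ARIEL knockdown libraries, against 10.48 and 10.46 in the control libraries. The difference of -0.07 ± 0.04 (SE; limma, adjusted p = 0.231) was not called, and its sign was opposite to that of ARRDC1. The library kit kept strand, but how the counting used strand is not given in the sources used here.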

How the data were processed

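RNA from 4 Jurkat libraries, 2 with an shRNA against ARIEL and 2 with an shRNA against GFP, was sequenced strand-specifically in pairs of 100 bases, per the labels' protocols. Sample titles gave the group and the replicate number. The submitters' processing notes list hg19, DESeq2 1.12.4, HTSeq 0.6.1 and STAR 2.5.2a without roles, and the sources used here give no filters, annotation or size factors. ERCC spike-in RNA was added per cell number, per the labels, and whether it entered the scaling is not given. The deposited values are rlog levels on the log2 scale, 1 per gene in each library, per the file headers. The authors also deposited a log2 fold change and its SE, a test score, a p-value and an adjusted p per gene. Without counts no counting error or depth can be given.

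The 6 members and all lists were chosen with earlier results of these data known. limma 3.58.1 in R 4.3.3 (lmFit, then eBayes with its trend option) was run on the rlog values of the 14601 genes with a mean of log2 of 10 or more, adjusted by Benjamini-Hochberg over all of them at 0.05. SEs come from this fit, in which genes share information on their spread. Genes of like level therefore have nearly the same SE, whatever the spread of their own replicates. The adjusted p values rest on these SEs and so do not measure how well a gene's own replicates match. Fits were first tested on simulated data, in which spread followed level alone and libraries were independent. That test could not check either assumption. For 28 of 29 gene names that had become dates the symbol was looked up by identifier. GC content and length come from GENCODE 29, matched for 12719 tested genes; the trend was removed from each library by splines with 5 degrees of freedom each. Promoters come from RefSeq. The ratio of rlog differences to the deposited log2 fold changes was added after the values were seen. Named genes were all members, MLX, MLXIPL, ARRDC5, ARRB1, ARRB2, TXN, SLC2A1 and HK2. Up to 2 called genes per list and direction with the largest differences were also named. So were the targeted RNA and 3 pattern neighbours of ARRDC4 and of TXNIP. MXD1, ITCH, HK1, KLF10, HBB, C9orf37 and the markers named were added after their values were seen. Figures used Python 3.11.15 and matplotlib 3.10.9. The alternatives tried were other filters, a replicate block, each library left out, the GC and length trend removed, centring on the median, other variance models and the authors' deposited test.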

Additional observations from a re-analysis of the deposited data

How the results depend on the processing

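All 6488 calls rest on sharing the spread between genes. With the variance of each gene alone, limma called 0 genes, in the whole table and in each of the 7 pathway lists. In that fit 4561 genes had an unadjusted p under 0.05. The authors' deposited test called 5728 of the tested genes, but it used the same 4 libraries and is no independent check. With 1 library left out at a time, 4225 to 6188 genes were called in all, 1 to 2 in the MLX network (3 with all libraries), 3 to 5 NEDD4-family ligases (6), 3 to 6 thioredoxin system genes (6) and 1 to 2 AMPK subunits (1). In all 32 called list genes the groups did not overlap, so leaving out 1 library could not change the sign of a difference. The AMPK count was 2 with the replicate block and also 2 once the trend in GC and length was taken out. The labels do not say whether libraries with the same replicate number belong together. Over 14601 genes, replicate 2 minus 1 in the knockdown group correlated with that in the control group at 0.20 (Pearson). With the replicate block 7426 genes were called in all, and whether the replicates share a batch was not tested. Without the trend in GC and length the differences were 0.11 for ARRDC1, 0.0016 for ARRDC2, 0.24 for ARRDC3 and 0.69 for ARRDC4. The log2 fold changes of the authors' deposited table were 0.41, 0.13, 0.29 and 1.26 for these genes and -0.35 for MLXIP. With 1 library left out, differences ranged from 0.62 to 0.66 for ARRDC4, 0.19 to 0.24 for ARRDC1, 0.12 to 0.17 for ARRDC3, 0.02 to 0.11 for ARRDC2, -0.25 to -0.14 for MLXIP and -0.01 to 0.02 for TXNIP. The other filters, centring on the median and a variance shared without a trend kept each count within 1.5 times its value.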

Other observations

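The promoter motifs of TXNIP and ARRDC4 were followed over the table. Of 14601 tested genes, 9693 had a RefSeq promoter under the same symbol. Among 1234 carriers of the E-box 28.8% rose and 21.6% fell (limma, adjusted p under 0.05), against 23.8% and 23.2% of 8459 genes without it, with medians of 0.02 and 0.00. Median transcript GC content was 50.9% in carriers and 49.5% in the others, and its part in the difference was not tested. Among 337 carriers of the forkhead motif 18.7% rose and 27.3% fell, against 24.6% and 22.9% of 9356 genes without it, with medians of -0.02 and 0.00 and median GC contents of 46.5% and 49.8%. Of 4213 carriers of the CCAAT box 25.2% rose and 23.7% fell, against 23.9% and 22.5% of 5480 genes without it, with a median of 0.00 in both.

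The direct repeat of TXNIP, the rarest of the motifs, was carried by 15 tested genes, of which 3 rose and 3 fell (20% each), against 24.4% and 23% of 9678 genes without it. The rises were STX12, MYL5 and RCN3, and the falls HSPBAP1, AKAP10 and P4HA1, with differences between -0.22 and 0.19. GFPT1, the entry enzyme of hexosamine synthesis, also carries the repeat and differed by -0.06 without being called. These genes were named after their values were seen.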
